A study of Mus musculus with 4 samples.

Results

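Chondrocyte hypertrophy and osteoblast fate are driven by a small set of transcription factors, and 10 of their genes were followed here after knockdown of Chadl in ATDC5 cells. The genes were the runt family genes Runx1, Runx2 and Runx3, the osterix gene Sp7, the MADS-box genes Mef2c and Mef2d, the distal-less homeobox genes Dlx3 and Dlx5, and the muscle segment homeobox genes Msx1 and Msx2. A probe set belonged to a gene when the platform annotation gave that gene as its single symbol, which yielded 21 probe sets for 9 of the 10 genes, out of 45037 probe sets and 17097 genes in all. The annotation used names no probe set for Runx2, so its signal was not analysed here. Knockdown cells had been transfected with 30 nM of a duplex RNA against Chadl, and control cells with a scrambled duplex at the same dose. Both groups were ATDC5, a mouse chondrogenic cell line, and both were moved to differentiation medium 16 h after transfection and harvested at day 5. There were 2 knockdown arrays and 2 control arrays, and the labels name 1 duplex sequence as effective, so the knockdown rests on a single duplex. Values are log2 signals after RMA, the authors' normalization, and a difference of 1 on this scale is a 2-fold difference in signal.

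Runt proteins bind DNA together with the partner Cbfb. Runx2 is required for osteoblasts to form and drives chondrocytes into hypertrophy, Runx3 acts beside it in maturing chondrocytes, and Runx1 is found in chondroprogenitors. Osterix acts downstream of Runx2 in the osteoblast lineage. Mef2c is needed in chondrocytes for hypertrophy and is held in check by class IIa histone deacetylases, and the Dlx and Msx homeodomain factors act around these genes in skeletal precursors, with Dlx5 known as an activator of osteoblast genes.

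The 3 runt genes share a sequence element at their distal promoters, shown here because it ties the family together. At their brightest probe sets Runx1 and Runx3 lay on opposite sides of the controls in knockdown 1, though not in knockdown 2. RefSeq promoter windows (GRCm38.p6, 250 bases before to 50 bases after an annotated start) were found for 7 of the 10 genes, 11 windows in all. In the following stretches of 30 bases the capitals mark 16 letters that hold a pair of runt motifs. They come from the first annotated start of each gene, on chr16:92826025-92826054 (minus strand) for Runx1, chr17:44814583-44814612 (minus strand) for Runx2 and chr4:135120503-135120532 (plus strand) for Runx3.
Runx1: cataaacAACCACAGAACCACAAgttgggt
Runx2: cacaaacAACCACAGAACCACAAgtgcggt
Runx3: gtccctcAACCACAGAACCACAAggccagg
The 16 letters began 27 bases after the start in Runx1 and 22 bases after it in Runx2, and at -135 from the start in Runx3. The letters searched for were the stretch that the 3 runt windows share, so matches in those windows were given in advance. Both strands of all 32851 windows in the table were searched, and 4 held the 16 letters. These were the windows of Runx1, Runx2 and Runx3 and that of Gm16225, whose window overlaps that of Runx3. A single runt motif, TGTGGT on either strand, was in 16.8% of all windows and in 3 of the 11 member windows, those of the same 3 genes.

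Mef2c had the largest difference of the members, and bases from its promoter windows are given for that reason. They are the 250 bases before its second annotated start (chr13:83523406-83523655, plus strand). Of the windows at its 3 annotated starts, this was the only one with a match to a motif searched here. Capitals mark TAATTA, a core motif of homeodomain factors such as the Dlx and Msx proteins. A window of Msx2 (chr13:53472950-53472979, minus strand) held the same letters, which read alike on both strands.
Mef2c: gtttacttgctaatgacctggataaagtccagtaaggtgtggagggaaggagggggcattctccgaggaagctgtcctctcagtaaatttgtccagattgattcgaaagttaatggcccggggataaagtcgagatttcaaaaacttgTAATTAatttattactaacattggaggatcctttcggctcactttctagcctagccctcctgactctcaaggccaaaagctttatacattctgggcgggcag
Msx2: tgactgctcctgTAATTAactcctaattta
The motif began at -102 in Mef2c and at -187 in Msx2, and it was in 5.29% of all windows. The consensus of the MEF2 site was in 3.19% of all windows and in 0 of the 11 member windows. The GC box GGGCGG, searched on both strands as a motif of the Sp family, was in 35.7% of all windows and in 5 of the 11. A match describes letters in a window and is no evidence of binding.

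**Figure D1:**
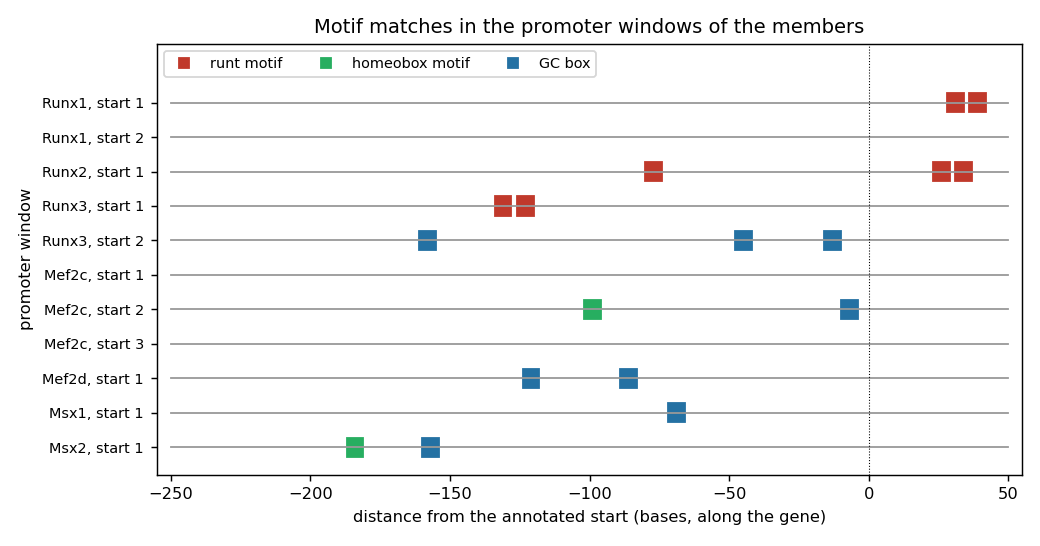
Positions of 3 motifs in the 11 promoter windows of the members, with the distance from the annotated start in bases along the x axis and a line for each window. The pair of runt motifs lies at 27 and 22 bases after the start in Runx1 and Runx2 and at -135 in Runx3, and the homeobox motif lies in 1 window each of Mef2c and Msx2.

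Both knockdown arrays carried less Chadl signal than both controls, with 4.29 and 4.64 in knockdown 1 and knockdown 2 against 4.91 and 4.84 in control 1 and control 2, which failed the adjusted threshold (log2 difference -0.41, SE 0.12, limma adjusted p = 0.728). Chadl was read by 1 probe set and was dimmer than the median gene (percentile 47.1), a range in which RMA compresses differences. Its array difference therefore does not measure the fall in RNA. Knockdown 1 stood apart. Counting genes more than 2-fold from a control array, there were 66 and 63 in knockdown 1 and 9 against each control in knockdown 2, while the controls had 0 between them. Of the 7 chondrocyte markers, Col2a1, Sox9, Col9a1 and Acan were brighter than the median gene (signal percentiles 92.1, 79.8, 70.0 and 52.8), while Hapln1, Comp and Matn3 were dimmer (38.9, 36.5 and 36.1). Their summed log2 signals were 38.9 and 41.3 in knockdown 1 and knockdown 2, against 40.9 and 41.4 in the controls. The hypertrophic markers were mixed, with Ibsp and Pth1r bright (93.5 and 90.7) and Ihh, Col10a1 and Mmp13 dim (33.2, 16.4 and 8.26). The 4 osteoblast markers measured, of which Sp7 is also a member, were Col1a1, Sp7, Bglap and Dmp1 at percentiles 96.6, 86.9, 69.3 and 29.4, with summed log2 signals of 26.1 and 28.8 in the knockdown arrays against 29.3 and 29.4 in the controls. The 5 skeletal muscle markers lay between percentiles 27.4 and 45.8 and the 4 macrophage markers between 6.25 and 46.7. Among the 3 adipocyte markers Pparg lay at 52.5 and the other two at 7.10 and 5.21, and among the 3 tendon markers Mkx lay at 64.2, Scx at 47.8 and Tnmd at 6.74. The labels speak of biological replicates without saying how the cultures were separated, and every p-value here rests on the spread between 4 samples that may be partly technical. In bulk RNA, fewer cells of a type and less RNA per cell cannot be told apart.

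None of the 9 genes passed the test over all genes. Their mean differences ran from -0.80 for Mef2c to 0.35 for Runx1, and limma's adjusted p lay between 0.72 and 0.93, against a background of 0% of 17097 genes called. At an unadjusted p of 0.05, 1 of the 9 was lower (Mef2c) and 0 were higher, where 2.52% of all genes were lower and 4.15% higher. In 4 genes (Runx3, Sp7, Mef2c and Dlx5) both knockdown arrays lay below both controls, a pattern that 17.1% of all genes showed, and in 0 of the 9 did both lie above, as they did in 21.2% of all genes. The median difference was -0.19 over the 9 genes and 0.01 over all genes. Array by array, knockdown 1 had a members' median of -0.08 and knockdown 2 one of -0.06. Among the 9 genes, 7 were further from the control mean in knockdown 1 than in knockdown 2, as were 10001 of the 17097 genes.

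**Figure D2:**
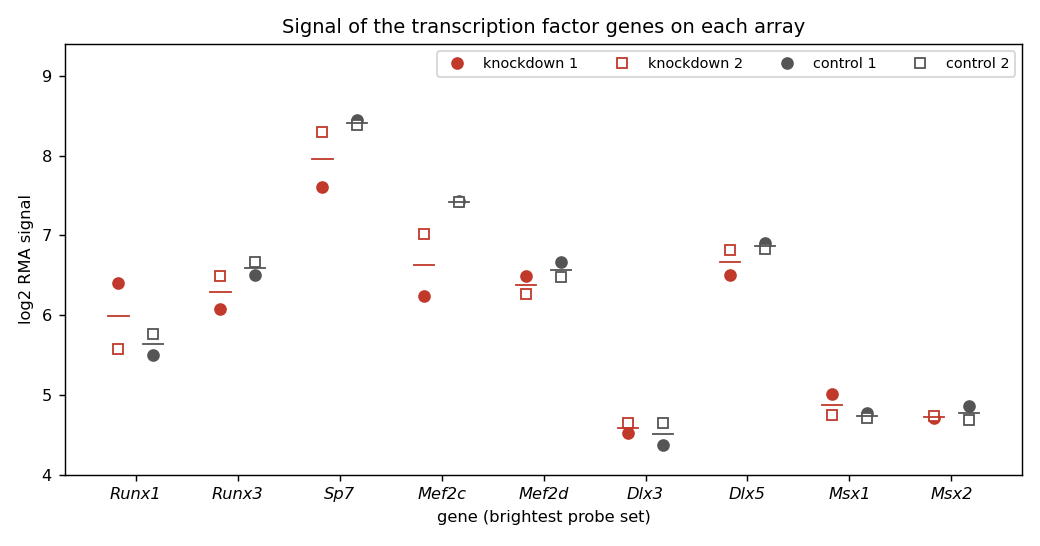
Log2 RMA signal of the brightest probe set of each of the 9 measured genes, with 2 knockdown arrays (red, left) and 2 control arrays (grey, right), and a bar at each group's mean. Mef2c and Sp7 show both knockdown arrays below the controls with knockdown 1 the lower of the pair, and Runx1 shows knockdown 1 alone above the controls.

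Mef2c, the MADS-box factor of chondrocyte hypertrophy, had the clearest separation. Its brightest probe set (1424852_PM_at) had signals of 6.24 and 7.02 in knockdown 1 and knockdown 2, against 7.43 and 7.42 in the controls. The control pair differed by 0.02, while both knockdown arrays were lower and were themselves 0.79 apart. Knockdown 1 was 2.28-fold and knockdown 2 was 1.32-fold below the control mean, and the group means were 6.63 ± 0.56 in knockdown and 7.43 ± 0.01 in control (SD, n = 2 each). The log2 difference of -0.80 (SE 0.23, 95% confidence interval -1.35 to -0.24) did not pass over all genes (limma unadjusted p = 0.0118, adjusted p = 0.72). The second probe set (1451506_PM_at) read 5.78 and 6.39 in the knockdown arrays against 7.02 and 7.03 in the controls, and the third (1451507_PM_at) 4.55 and 5.31 against 5.75 and 5.56. All 3 Mef2c probe sets thus had both knockdown arrays below both controls, as 19.9% of all probe sets did, with log2 differences from -0.94 to -0.72. They read the same transcripts and the same 4 RNA samples, so they are no independent replicates. The second had the lowest adjusted p of the 21 member probe sets, 0.415 in the limma fit over all probe sets, in which 0.00222% of probe sets passed.

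Mef2d, its relative in the same family, did not separate. The brighter probe set read 6.49 and 6.27 in knockdown 1 and knockdown 2, against 6.67 and 6.47 in the controls. Knockdown 1 lay between the controls and knockdown 2 below both. At their brighter probe sets Mef2d and Dlx3 were thus exceptions to the larger distance of knockdown 1. Their second probe sets had knockdown 1 further from the control mean, at -0.19 against 0.03 in knockdown 2 for Mef2d and -0.08 against 0.0004 for Dlx3. The log2 difference of Mef2d was -0.19 (95% confidence interval -0.46 to 0.08), and its second probe set differed by -0.08.

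The osterix gene Sp7, read by 1 probe set (1418425_PM_at), was lower mainly in knockdown 1. Signals were 7.60 and 8.30 in knockdown 1 and knockdown 2, against 8.45 and 8.38 in the controls. Both knockdown arrays lay below the controls, but the gap between knockdown 2 and the lower control (0.08) was close to the gap between the controls themselves (0.07). Knockdown 1 was 1.76-fold and knockdown 2 was 1.08-fold below the control mean, with a mean log2 difference of -0.46 (SE 0.20, 95% confidence interval -0.95 to 0.03, limma adjusted p = 0.75). In the fit over all probe sets the same difference had an interval of -0.92 to -0.01 (limma unadjusted p = 0.0467, adjusted p = 0.681). Without knockdown 1 the difference was -0.11.

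At their brightest probe sets the 2 runt genes measured lay on opposite sides of the control mean in knockdown 1 and both slightly below it in knockdown 2. Runx1 had 6.40 and 5.57 in knockdown 1 and knockdown 2 at its brightest probe set (1422864_PM_at), against 5.51 and 5.76 in the controls. Knockdown 1 was thus 1.70-fold above the control mean while knockdown 2 lay within the controls' range. All 6 Runx1 probe sets were higher than the control mean in knockdown 1, by 0.10 to 0.86, whereas in knockdown 2 they split into 3 higher and 3 lower, between -0.10 and 0.08. In 1 of the 6 (1452531_PM_at) both knockdown arrays lay above both controls, at 5.40 and 5.08 against 5.08 and 4.98 (a pattern of 18.6% of all probe sets), the second of them by 0.0037. The mean log2 difference at the brightest probe set was 0.35 (SE 0.25, limma adjusted p = 0.811), and without knockdown 1 it was -0.06. Runx3 had 6.08 and 6.49 in knockdown 1 and knockdown 2, against 6.51 and 6.67 in the controls, at its brighter probe set (1440275_PM_at). Knockdown 1 was 1.42-fold below the control mean, and knockdown 2 lay 0.01 under the lower control, so the groups parted by a margin far smaller than the distance between the controls. Its log2 difference was -0.30 (95% confidence interval -0.65 to 0.05). The second, dimmer Runx3 probe set differed by -0.04 with its arrays overlapping, and there knockdown 1 lay 0.02 above the control mean, on the same side as Runx1.

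**Figure D3:**
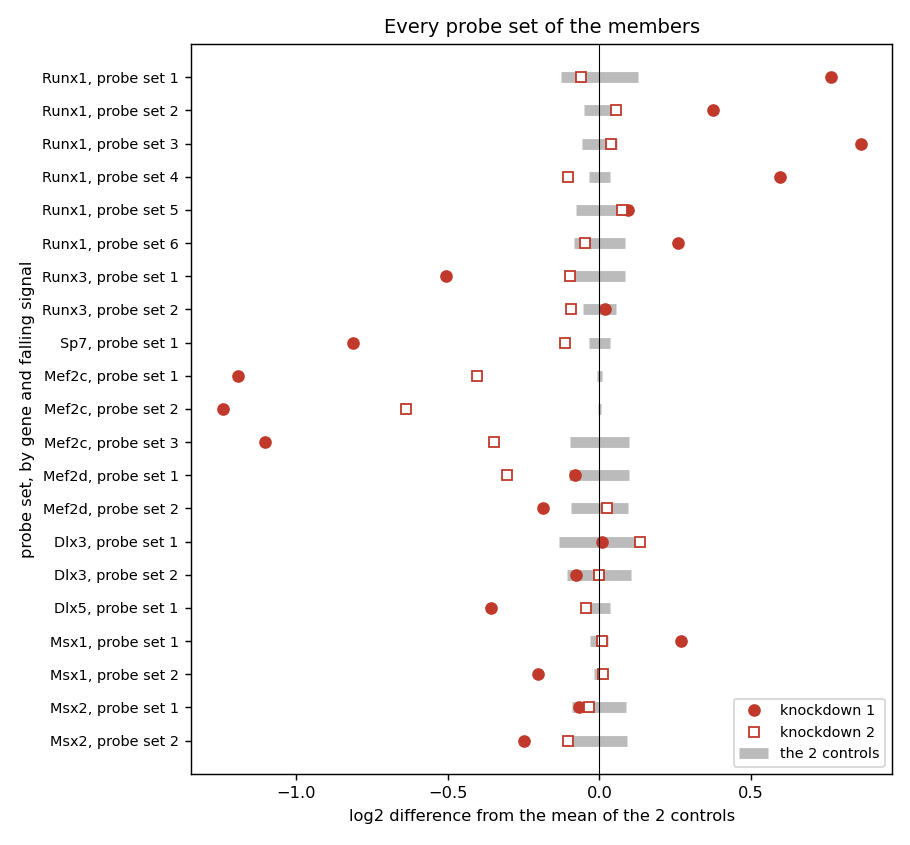
Log2 difference of knockdown 1 (filled) and knockdown 2 (open) from the mean of the 2 controls for each of the 21 member probe sets, with grey bars that reach from one control to the other. The 3 Mef2c probe sets lie left of the grey bars in both knockdown arrays, and the 6 Runx1 probe sets lie to the right in knockdown 1 and near 0 in knockdown 2.

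Among the homeobox genes, Dlx5 was lower in knockdown 1 and level in knockdown 2. Dlx5 signals were 6.51 and 6.82 in knockdown 1 and knockdown 2, against 6.90 and 6.83 in the controls. Knockdown 1 was 1.28-fold below the control mean and knockdown 2 lay 0.01 under the lower control, less than the 0.07 between the controls, and the log2 difference of -0.20 had a 95% confidence interval of -0.48 to 0.08. Dlx3, whose product acts in skin, tooth and bone, had 4.52 and 4.64 in the knockdown arrays against 4.38 and 4.64 in the controls, with full overlap (log2 difference 0.07, 95% confidence interval -0.20 to 0.34).

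Msx1, a factor that keeps craniofacial and limb precursors undifferentiated, had 5.01 and 4.75 in knockdown 1 and knockdown 2 at its brighter probe set, against 4.77 and 4.71 in the controls. Knockdown 1 lay above the controls at that probe set, yet the second probe set of Msx1 put knockdown 1 below them, at 4.23 and 4.45 in the knockdown arrays against 4.46 and 4.42. The 2 probe sets of Msx1 therefore had opposite mean differences, 0.14 and -0.09. Msx2 had 4.71 and 4.74 against 4.86 and 4.68 in the controls, a difference of -0.05 with a 95% confidence interval of -0.27 to 0.17, and its second, dimmer probe set differed by -0.18. Dlx3, Msx1 and Msx2 were dimmer than the median gene (percentiles 45.3 to 49.2), a range in which RMA compresses differences, so the intervals of these 3 genes bound the array difference and not the change in RNA.

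**Figure D4:**
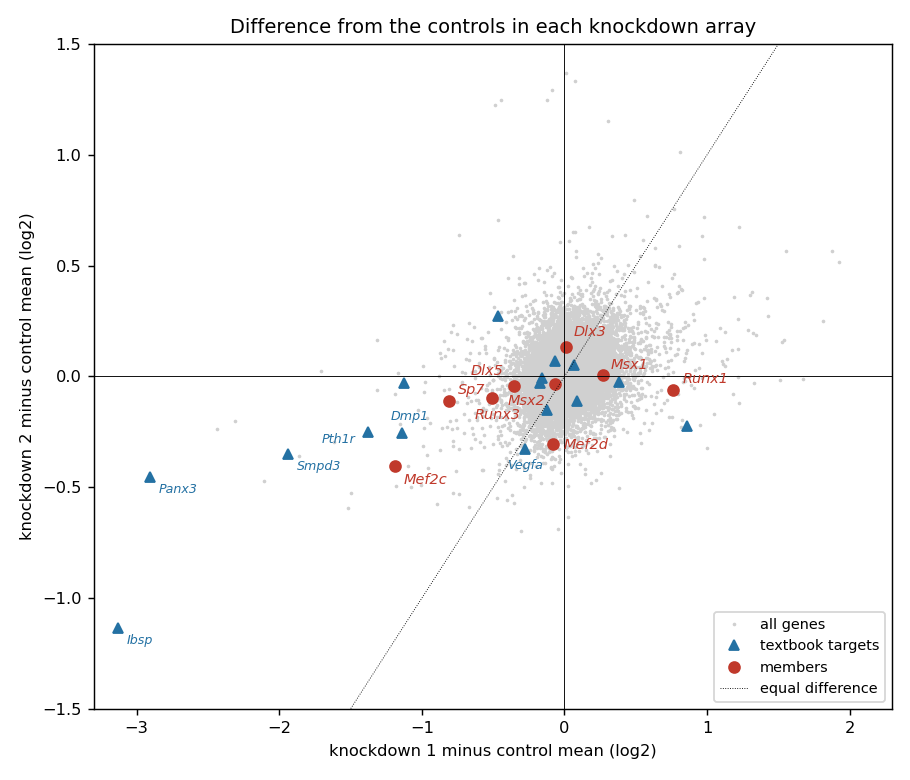
Each gene's log2 difference from the control mean in knockdown 1 (x axis) and in knockdown 2 (y axis, drawn at a larger scale), for all genes (grey), the 9 members (red) and 16 textbook target genes (blue), with a dotted line where both differences are equal. Mef2c lies below 0 in both arrays, at -1.19 and -0.40, Sp7 lies at -0.81 and -0.11, Runx3 at -0.51 and -0.10, and Runx1 at 0.76 and -0.06.

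Mef2c was the member that passed with either knockdown array left out. Without knockdown 1, limma passed 3.28% of all genes and 1 of the 9 members, Mef2c (log2 difference -0.40, adjusted p = 0.000917). Without knockdown 2 it passed 15.1% of all genes and 5 of the members, which were Mef2c (-1.19), Sp7 (-0.81), Runx3 (-0.51) and Dlx5 (-0.36) on the lower side and Runx1 (0.76) on the higher side. Both fits take the lone knockdown array to vary as the controls do, although over all genes the knockdown pair differed with an SD of 0.20 and the control pair with one of 0.10. The ratio of these SDs was 1.93 over all genes and 2.63 over genes at or above the median signal, where the passing members lay.

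The 5 genes whose profile was nearest to that of Mef2c were Cdkn1a, Ramp1, Bmper, Sgms2 and Frzb, in that order. Nearness was the Euclidean distance over the 4 arrays of log2 signal less the control mean, among 8316 genes at or above the median signal, predicted genes and clones left out, and the distances ran from 0.09 to 0.21. Cdkn1a, which encodes the cell cycle inhibitor p21, read 6.21 and 6.89 in knockdown 1 and knockdown 2, against 7.39 and 7.39 in the controls. Bmper, which encodes a secreted binder of bone morphogenetic proteins, read 7.71 and 8.29 against 8.79 and 8.78. Ramp1, a receptor activity modifying protein gene, differed by -0.75 on average, the sphingomyelin synthase gene Sgms2 by -0.75 and the secreted Wnt antagonist gene Frzb by -0.69. Other probe sets differed by as little as -0.05 for Ramp1 and -0.09 for Sgms2, and the mean of a gene's probe sets gave -0.30 and -0.42 for these genes. Each of the 5 was lower in both knockdown arrays than in both controls, which their nearness to Mef2c requires, and none passed over all genes (limma adjusted p from 0.615 to 0.744).

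Genes that act with the members or on them had list medians near 0, with 1 gene per list below an unadjusted p of 0.05, beside a background of 4.15% of all genes on the higher side and 2.52% on the lower side. Of 25 partners and modifiers of the runt proteins and osterix, 23 were measured, 0 passed over all genes in either direction and the median difference was 0.02. The gene below that p, on the higher side, was Gli2, a transcription factor of hedgehog signalling, which had 6.23 and 6.07 in knockdown 1 and knockdown 2, against 5.69 and 5.60 in the controls. Both knockdown arrays lay above both controls by more than either pair differed, and the log2 difference was 0.51 (SE 0.09, limma adjusted p = 0.577), with a second Gli2 probe set at 0.18. Of 13 regulators of MEF2 proteins (class IIa deacetylases, kinases and the methyltransferase gene Carm1), 12 were measured, 0 passed, and the median was 0.02. The gene at an unadjusted p below 0.05, on the lower side, was Hdac9, a class IIa histone deacetylase that binds MEF2 proteins and is itself a MEF2 target in muscle. Hdac9 had 3.85 and 4.17 in knockdown 1 and knockdown 2, against 4.73 and 4.75 in the controls. Both knockdown arrays were lower than both controls (log2 difference -0.73, SE 0.12, limma adjusted p = 0.506), but the second Hdac9 probe set differed by -0.0083. Hdac9 was also dimmer than the median gene (percentile 42.0), where RMA compresses differences. Among 16 relatives, 15 were measured, 0 passed and the median was 0.00. They came from the members' families, except for Barx1, Barx2, Prrx1 and Prrx2, homeobox genes of other families. The relative below that p, also on the lower side, was Dlx6, the neighbour of Dlx5 in the Dlx clusters, with 3.90 and 3.92 in the knockdown arrays against 4.10 and 4.30 in the controls, a dim gene whose second probe set differed by -0.03.

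Textbook targets of these factors in hypertrophic cartilage and bone included the widest differences. Of 20 such genes 16 were measured and 0 passed over all genes. At an unadjusted p of 0.05, 7 were lower and 0 higher, beside the 2.52% and 4.15% of all genes. The list was chosen with earlier results of these data known, so its counts are no test against that background. In 9 of the 16 both knockdown arrays lay below both controls and in 1 both lay above, beside 17.1% and 21.2% of all genes. The median was -0.12 (-0.22 from knockdown 1 alone and -0.13 from knockdown 2 alone). Of the 20 listed targets, 11 also belong to the hypertrophic or osteoblast marker lists. The differences of those markers and of the targets are thus in part the same values, not separate observations. Ibsp, the bone sialoprotein gene, had 7.02 and 9.01 in knockdown 1 and knockdown 2, against 10.15 and 10.15 in the controls (log2 difference -2.13, limma adjusted p = 0.694). It shared with Mef2c the order of the arrays, with knockdown 1 lowest, knockdown 2 between, and the controls together at the top. The sphingomyelinase gene Smpd3 differed by -1.15, the parathyroid hormone receptor gene Pth1r by -0.81 and the matrix phosphoprotein gene Dmp1 by -0.70, each with the same order of arrays. Knockdown 1 carried most of these means, since knockdown 2 alone gave -1.14 for Ibsp, -0.35 for Smpd3, -0.25 for Pth1r and -0.26 for Dmp1. With the mean of its 3 probe sets Smpd3 differed by -0.64, and Dmp1 was a dim gene (percentile 29.4). Vegfa, an angiogenic factor gene, and Col1a1, the main collagen gene of bone, had other profiles, with nearly equal differences in both knockdown arrays (-0.28 and -0.33 for Vegfa, -0.12 and -0.15 for Col1a1), and the second Vegfa probe set differed by 0.02. The seventh, the channel gene Panx3, was named after its values were seen and differed by -1.68, with -2.91 in knockdown 1 and -0.45 in knockdown 2. Col10a1, a direct target of Runx2 and Mef2c in hypertrophic chondrocytes, read 3.52 and 3.65 in the knockdown arrays against 3.58 and 3.59 in the controls, also named after its values were seen and too dim for a lower level to show.

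Genes known to respond to MEF2 factors split. All 6 were measured and 0 passed over all genes, while an unadjusted p below 0.05 was reached by 3 on the lower side and 1 on the higher side, beside 2.52% and 4.15% of all genes. Egr1, an immediate early gene, had 7.47 and 7.25 in knockdown 1 and knockdown 2, against 7.77 and 7.74 in the controls, so that knockdown 2 was the lower array here. The orphan receptor gene Nr4a1 had 5.94 and 6.12 against 6.45 and 6.32, and Klf4, a zinc finger factor gene, 8.01 and 8.44 against 8.62 and 8.56. Jun, an AP-1 subunit gene, was on the other side, with 7.75 and 7.58 in the knockdown arrays against 7.41 and 7.36 in the controls. The median over the 6 genes was -0.36 (-0.36 from knockdown 1 alone and -0.11 from knockdown 2 alone), and limma's adjusted p lay between 0.615 and 0.786. This list, too, was chosen with earlier results of these data known.

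**Figure D5:**
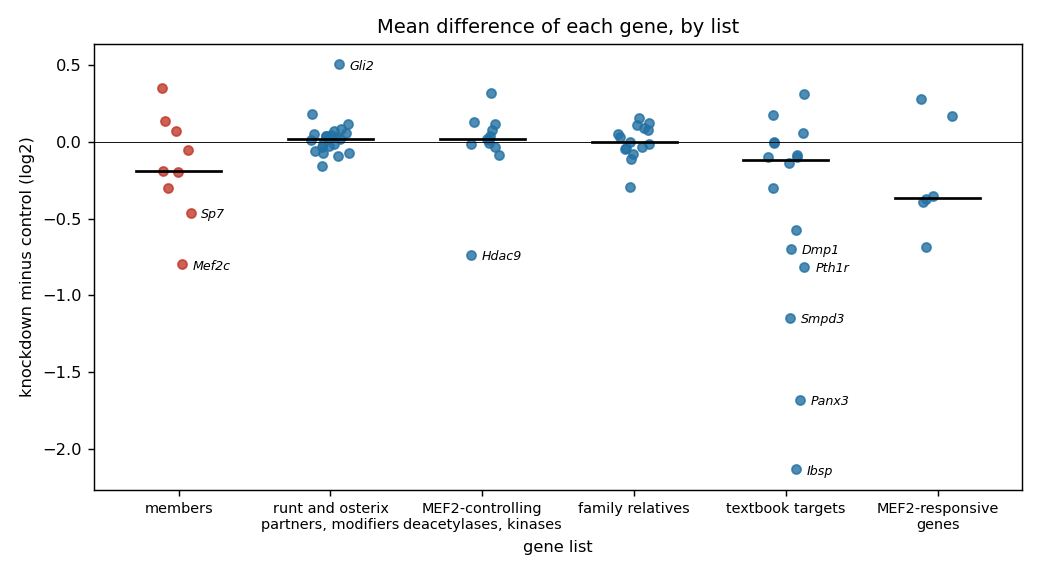
Mean log2 difference, knockdown minus control, of each measured gene in 6 lists, with a point for each gene and a black bar at the list's median. The medians are -0.19 for the members, near 0 for the partners, the MEF2 regulators and the relatives, -0.12 for the textbook targets and -0.36 for the MEF2-responsive genes.

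In the promoter windows of the targets the runt motif was found in 5 of 22, beside 16.8% of all windows. The homeobox motif was in 3 of 22, beside 5.29%, and the GC box in 9 of 22, beside 35.7%. The runt motif began at -132 in Bglap, which encodes osteocalcin, at -118 in the collagenase gene Mmp13 and at -164 in a window of Dmp1. The homeobox motif began at -106 in Col10a1 and at -2 in a window of Pth1r. The MEF2 consensus was in 1 of the 22 windows, of Pth1r, beside 3.19% of all windows. The 16 letters of the runt genes were in 0 of the 22, beside 4 of all 32851 windows, so a match was hardly possible.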

How the data were processed

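Per the submitters' processing notes the authors ran RMA, and the table they deposited holds a log2 value for each probe set; the version of RMA is not given in the sources used here. RMA equalises the arrays and compresses the differences of dim genes. Of 45141 probe sets, 104 array controls were left out, 28898 carried 1 symbol, 551 several and 15692 none, the controls included. A gene was read by its brightest probe set (highest mean over the 4 arrays). Knockdown was compared with control over 17097 genes with limma 3.58.1 in R 4.3.3 (eBayes with a mean-variance trend, 2 residual and 4.45 prior degrees of freedom), with Benjamini-Hochberg adjustment over all genes at 0.05, two-sided. A second fit covered all 45037 probe sets. The number of arrays limits the precision.

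Members and gene lists were chosen with earlier results of these data known. Lists were described by counts and medians, not tested. The text names all members, Chadl, the list genes with an unadjusted p under 0.05 (up to 6 per list) and the 5 genes nearest to Mef2c. On 20 simulated sets limma recovered 40.4% of 1.41-fold, 95.2% of 2-fold and 99.8% of 4-fold changes, with equal spread in both groups. The measured spread was unequal, with an SD over all genes of 0.20 for the knockdown pair and 0.10 for the control pair. The simulated percentages thus cannot tell how often a real change of that size would pass. Ibsp, 4.39-fold lower on average, did not pass (limma adjusted p = 0.694). Alternatives were other normalizations, filters, probe set rules and variance models, a block for the replicate number, and fits on 3 arrays. The same-numbered arrays did not deviate together (correlation -0.0041 over genes), and the labels give no shared source for a number. Promoter windows are from RefSeq (GRCm38.p6), and the list genes without a probe set were not analysed here.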

Additional observations from a re-analysis of the deposited data

How the results depend on the processing

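For the 28 named genes, all 222 values under the 8 alternatives other than leaving out an array kept the direction of the difference and its side of the adjusted p of 0.05. The dim gene filter, the variance models, the block and the fit over all probe sets leave a gene's difference as it was by construction. Only the normalizations and the mean of probe sets could turn a direction. None of the 9 members passed under these alternatives or at an adjusted p of 0.1. At an unadjusted p of 0.05 limma called 1 in the main fit over genes. In the fit over all probe sets, 4 member probe sets were lower and 0 higher at that p, those of Mef2c and that of Sp7. The share of all probe sets at that p was not counted. The members' median, -0.19, was -0.14 with the mean of a gene's probe sets and -0.050 over all 21 probe sets, where 7 probe sets had the knockdown pair under the control pair and 1 had it over (19.9% and 18.6% of all probe sets). With the replicate number as a block the median was -0.19 and 0 members passed. With 1 array left out, the median ran from -0.22 to -0.062, shrinking over 1.5 times without control 1 (-0.094), knockdown 1 (-0.062) or knockdown 2 (-0.081), members passing from 0 to 5, and members with the knockdown above the controls from 1 to 2. Leaving out an array turned the sign for Runx1 (-0.062 to 0.76, below 0 without knockdown 1), Dlx3 (-0.061 to 0.20) and Msx2 (-0.14 to 0.038), the last 2 without control 1. With 1 array fewer the groups part more easily by construction, and the cause of the other moves was not tested.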
